A study of Mus musculus with 36 samples.

Results

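The 9 genes described here encode the neurotrophic ligands Bdnf, Ntf3 and Gdnf and the receptors Ntrk2, Ntrk3, Ngfr, Gfra1, Ret and Cntfr. They were chosen by name, as the rows of the deposited table whose gene symbol is one of these, and all 9 were found among its 18845 genes. RNA was recovered from mouse tissue by pulling down ribosomes through an HA tag on a ribosomal protein (the Ribo-tag allele). Diaphragm, which the labels call muscle enriched for synapses, came from mice with the Ribo-tag allele alone (Cre-negative) or together with ChAT-Cre (Cre-positive), and spinal cord came from Cre-positive mice only. Each was taken at embryonic day E15.5, at postnatal days P0.5 and P10 and at an adult age of 2 months, with 3 libraries in each of the 12 groups. All 36 libraries carry the Ribo-tag allele and passed the HA purification. ChAT-Cre is driven from the gene of the acetylcholine-synthesising enzyme, so the tag is meant for cholinergic cells such as motor neurons, and Cre-negative libraries hold what the purification recovers without Cre. No Cre-negative spinal cord was among the samples. The labels do not say whether the 3 libraries of a group come from separate animals, so p-values measure the spread between these samples, which may be technical.

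Neurotrophic factors are secreted proteins on which the survival, growth and synapses of neurons depend. In the motor system muscle and peripheral glia supply ligands to motor axons, and the motor neuron carries the receptors. BDNF signals through the tyrosine kinase TrkB (Ntrk2) and NT-3 (Ntf3) through TrkC (Ntrk3), the p75 receptor (Ngfr) binds all neurotrophins, GDNF binds Gfra1, which then engages the kinase Ret, and the ciliary neurotrophic factor binds Cntfr.

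Values are CPM, the deposited counts scaled to library size but not to gene length, so levels are compared between groups and never between genes. Depth ran from 68.2 to 93.7 M reads (units of 1e6 reads) for diaphragm without Cre, from 86.0 to 107 M with it, and from 63.7 to 71.8 M for spinal cord. At such depth 3 reads lie under 0.05 CPM, so the error that matters is the one between replicate libraries. In each group the library closest to a positively weighted sum of the remaining pair is called intermediate here. It was replicate 3 in 9 of 12 groups, and calls are given with and without these libraries. Every group has such a library by this definition. Leaving it out removes the library nearest a mix of the others and keeps only that pair, so calls can be lost for this reason alone. A 9-gene list of motor neuron and cholinergic markers summed to 1844 to 3024 CPM in the spinal cord libraries and to 1.43 to 78.0 CPM in diaphragm. In diaphragm Chat itself was at 0 in every Cre-negative library and in all 3 Cre-positive libraries at P0.5. It reached at most 0.16 CPM in the others, and the defining motor neuron gene Mnx1 was at 0 in all 24 libraries. Of the 9 listed genes, 4, 3, 2 and 6 had reads in Cre-negative diaphragm from E15.5 to the adult. In Cre-positive diaphragm 7, 6, 8 and 7 had reads. The list sums overlapped between genotypes except at P10, where Cre-positive libraries were lower (7.72 to 11.2 against 14.9 to 22.3 CPM). Whether these reads came from tagged cells was not tested. The spinal cord RNA also held glial transcripts: a list of oligodendrocyte genes summed to 138 to 176 CPM at E15.5, 969 to 1044 at P0.5, 15847 to 21269 at P10 and 2522 to 4221 in the adult. An astrocyte list summed to 125 to 181, 344 to 366, 444 to 460 and 199 to 270 CPM at the same ages. A 10-gene skeletal muscle list summed to 669 to 1310, 928 to 4385, 44.7 to 352 and 6.57 to 9.71 CPM in spinal cord from E15.5 to the adult, against 20789 or more in diaphragm, so these sums were lower at P10 and lower again in the adult, as were Ngfr and Ntf3. In such bulk RNA, fewer cells of a type and less RNA per cell cannot be told apart, and the part of these other cells in the results below was not tested.

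The promoters of Ngfr and Ntf3 are shown because these were the members whose level in spinal cord fell furthest with age. Both come from RefSeq, build GRCm38.p6, and are read 5′ to 3′ along the gene, with GC boxes (GGGCGG or its reverse complement CCGCCC) in capitals. Ngfr lies on the minus strand of chromosome 11 (95568818 to 95587698), and the 250 bases before its start are chr11:95587699-95587948. Ntf3 lies on the minus strand of chromosome 6 (126101412 to 126166772), and its 222 bases are chr6:126166773-126166994.
Ngfr: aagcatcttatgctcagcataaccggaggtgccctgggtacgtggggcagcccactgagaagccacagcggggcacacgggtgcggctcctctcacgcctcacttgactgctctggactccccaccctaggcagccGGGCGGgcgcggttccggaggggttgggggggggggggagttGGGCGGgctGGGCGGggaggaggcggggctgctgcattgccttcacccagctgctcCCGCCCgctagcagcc
Ntf3: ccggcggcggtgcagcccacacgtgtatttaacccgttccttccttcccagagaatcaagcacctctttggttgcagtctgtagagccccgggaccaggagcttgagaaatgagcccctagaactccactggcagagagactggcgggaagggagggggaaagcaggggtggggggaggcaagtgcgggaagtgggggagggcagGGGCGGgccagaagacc
The Ngfr window held 4 GC boxes and the shorter Ntf3 window 1, where 32.7% of 32851 promoter windows of 250 bases held at least 1 on either strand. Each held 2 E-boxes (CANNTG, found in 66.2% of windows) and no cAMP response element (TGACGTCA, in 1.55%). Their GC contents of 70.4% and 63.1% were above the median window's 52.4%. These are matches of letters and do not show that a factor binds there.

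Ngfr, the p75 receptor, was the receptor with the widest change in spinal cord. Its level was 83.6, 92.0 and 82.6 CPM in the E15.5 libraries and 72.6, 71.4 and 71.2 at P0.5. P10 libraries gave 0.63, 2.57 and 2.19, and adult ones 0.33, 0.28 and 0.17 CPM. The early and late libraries did not overlap, and the mean fell 40.0-fold between P0.5 and P10. On the log2(CPM + 1) scale that step was -4.78 ± 0.23 (SE, n = 3 against 3, limma adjusted p = 9.6e-09, and 5.5e-05 without the intermediate libraries). The step from P10 to the adult was -1.07 ± 0.23 (adjusted p = 0.002, and 0.087 without the intermediate libraries). Between E15.5 and P0.5 the difference of -0.26 was not past the threshold (adjusted p = 0.34). At P10 the libraries with more Ngfr also had more Avil, a sensory neuron gene (0.92, 35.8 and 17.3 CPM). The 8-gene sensory list, which holds Avil, ranged from 4.94 to 47.0 CPM there, against 31.7 to 32.8 at E15.5, 11.2 to 15.3 at P0.5 and 2.22 to 2.98 in the adult, while the 9-gene Schwann cell list summed to 4770 to 4887 at P10. Their part in the Ngfr levels was not tested.

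**Figure D1:**
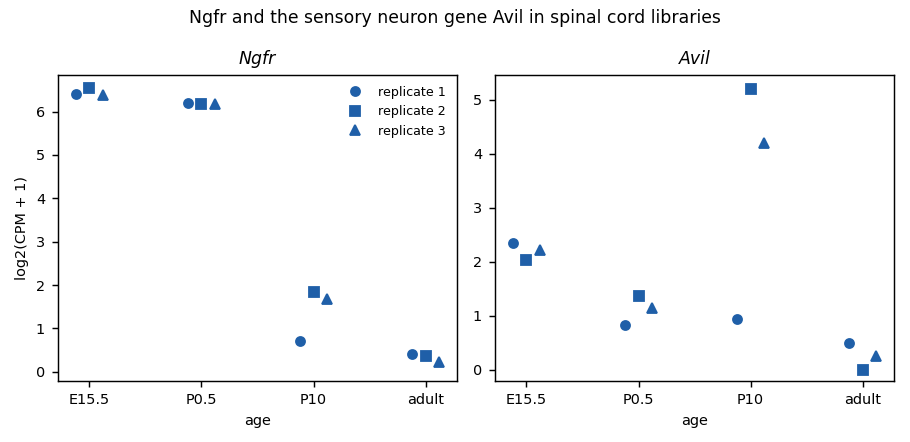
Level of Ngfr and of Avil, a sensory neuron gene, in the 12 spinal cord libraries, as log2(CPM + 1) against age, 1 marker shape per replicate. At P10 replicate 1 is the lowest and replicate 2 the highest of the 3 libraries for both genes, and Ngfr at P10 lies far under its levels of 71.2 to 92.0 CPM at E15.5 and P0.5.

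Ntrk3, the NT-3 receptor, fell in spinal cord at both later steps. It was 37.8, 37.2 and 33.9 CPM at E15.5 and 38.8, 36.8 and 39.1 at P0.5, ages whose libraries overlapped (difference 0.08, adjusted p = 0.35). It was then 29.1, 28.1 and 28.1 at P10 and reached 18.8, 15.7 and 16.5 in the adult, each below every library of the age before. The steps were -0.41 ± 0.07 (adjusted p = 6.6e-05) and -0.71 ± 0.07 (adjusted p = 3.9e-07), and both stayed past the threshold without the intermediate libraries (0.0094 and 0.00025). The adult mean of 17.0 ± 1.61 CPM (SD, n = 3) stood against 36.3 ± 2.12 at E15.5.

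Ntrk2, the BDNF receptor, varied less. Its spinal cord levels were 26.6, 24.2 and 25.3 CPM at E15.5, 32.0, 26.0 and 30.9 at P0.5, 25.7, 23.4 and 25.1 at P10, with adult values of 21.2, 19.2 and 20.5. Libraries of E15.5, P0.5 and P10 lay close together, and the adult ones were below them all. The rise at P0.5 was 0.21 ± 0.08 (adjusted p = 0.025), the fall at P10 -0.25 ± 0.08 (0.0097) and the fall in the adult -0.27 ± 0.08 (0.0065). None of the 3 was past the threshold without the intermediate libraries (adjusted p = 0.25, 0.14 and 0.10). At the adult step, members called lower went from 6 to 3 with RLE size factors, a scaling that centres the genes. The Ntrk2 fall there may depend on the scaling. Leaving out E15.5 replicate 2 or 3 or P0.5 replicate 1 or 3 ended the P0.5 call (0.057 to 0.12), and leaving out P0.5 replicate 1 ended the P10 call (0.056). Gene-level counts do not separate the full-length TrkB, which holds the kinase, from truncated forms that glia also make.

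Gfra1, the GDNF-binding receptor anchored to the membrane, peaked at birth in spinal cord. It stood at 43.3, 35.4 and 38.9 CPM at E15.5, 94.4, 80.2 and 88.6 at P0.5, 32.0, 26.9 and 28.6 at P10, then adult values of 23.8, 23.5 and 23.9. No 2 neighbouring ages overlapped. The mean rose 2.24-fold to P0.5 (log2 difference 1.14 ± 0.08, adjusted p = 1.1e-08) and then fell 3.0-fold to P10 (-1.56 ± 0.08, adjusted p = 1.2e-10). Both calls remained without the intermediate libraries (8.6e-06 and 1.5e-07). The last step of -0.28 (adjusted p = 0.007, and 0.077 without the intermediate libraries) was -0.08 with RLE size factors, a scaling that centres the genes (0.34).

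In CPM, Ret, the kinase that Gfra1 engages, did not share the peak of Gfra1 at P0.5. Its levels were 118, 112 and 115 CPM at E15.5 and 126, 102 and 118 at P0.5, with a log2 difference of 0.00 ± 0.08 (adjusted p = 0.99). It fell to 59.0, 50.1 and 54.8 at P10 (-1.06 ± 0.08, adjusted p = 3.4e-09, and 3.4e-06 without the intermediate libraries) and stood at 60.4, 57.8 and 59.7 in the adult. The last difference of 0.12 was not past the threshold (0.17), but with RLE size factors it was 0.33 (0.00047). From E15.5 to P0.5, 5 members rather than 3 were called higher with RLE size factors. The Ret and Ntrk3 differences at that step may thus depend on the scaling too.

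Cntfr, the receptor subunit that binds ciliary neurotrophic factor, fell between E15.5 and P0.5. It was 59.0, 63.7 and 62.5 CPM at E15.5, 40.6, 32.2 and 37.5 at P0.5, 36.1, 32.3 and 36.6 at P10, with adult values of 29.0, 30.4 and 30.0. E15.5 stood apart from all later libraries, while P0.5 and P10 overlapped. The first step was -0.74 ± 0.08 (adjusted p = 6.7e-07, and 0.0002 without the intermediate libraries), and the second was not past the threshold (-0.07, adjusted p = 0.46). The adult step of -0.22 (adjusted p = 0.02) lost its call without the intermediate libraries (0.21), without P10 replicate 1 or 3 or adult replicate 1 (0.058 to 0.082), and with RLE size factors (-0.02, 0.83).

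Among the ligands, Ntf3 was present in embryonic spinal cord and then receded to near 0. Its levels were 26.4, 31.4 and 29.8 CPM at E15.5, 8.22, 6.77 and 9.05 at P0.5, then 0.09, 0.61 and 0.60 at P10, and adult levels of 0, 0.07 and 0.12. E15.5, P0.5 and P10 did not overlap. The steps to P0.5 (-1.75 ± 0.14, adjusted p = 3.1e-08) and P10 (-2.67 ± 0.14, adjusted p = 1.1e-10) both kept their calls without the intermediate libraries (2.2e-06 and 1.6e-08). The step to the adult (-0.41, adjusted p = 0.016) did not (0.11), nor did it without P10 replicate 2 or 3 or adult replicate 1 (0.056 to 0.077). The sensory list, given above for Ngfr, also fell from E15.5 to P0.5. Its mean was then higher at P10 than at P0.5 (25.5 against 13.6 CPM, with P10 libraries from 4.94 to 47.0), where Ntf3 was lower. Its part in the Ntf3 levels was not tested.

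Bdnf was low at every age in spinal cord, at 3.56, 3.14 and 2.99 CPM at E15.5, 4.56, 4.70 and 4.46 at P0.5, 2.45, 2.73 and 2.38 at P10, then adult values of 3.05, 3.45 and 3.75. Neighbouring ages did not overlap. It rose at P0.5 (0.40 ± 0.09, adjusted p = 0.00059, and 0.03 without the intermediate libraries) and fell at P10 (-0.66 ± 0.09, adjusted p = 3.1e-06, and 0.0007). The rise to the adult (0.33 ± 0.09, adjusted p = 0.0033) was lost without the intermediate libraries (0.16). Gdnf had 11, 7 and 6 reads at E15.5, 16, 19 and 15 at P0.5, 3, 1 and 2 at P10 and 0 in all 3 adult libraries, where a count of 0 allows up to 0.0444 CPM. It did not pass the filter on low values and was not tested there.

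Of the 8 members tested in spinal cord, 3 rose and 2 fell to P0.5, 0 rose and 7 fell to P10, and 1 rose and 6 fell to the adult. These counts stand against a background in which 72.3%, 78.7% and 67.9% of the 13373 tested genes were called in either direction, so the shares of 5, 7 and 7 of 8 are near it. Of all genes 3732, 4706 and 3153 were called higher and 5936, 5820 and 5926 lower at the 3 steps. Without the intermediate libraries 4, 6 and 1 members were called, against 56.6%, 66.7% and 48.8% of genes. The median of all genes was -0.13, -0.08 and -0.16 at the 3 steps, and that of the members 0.04, -0.86 and -0.28. With RLE size factors, which move the median of all genes to within 0.02 of 0, the members split as 5 rises and 2 falls, 0 and 7, and 2 and 3.

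**Figure D2:**
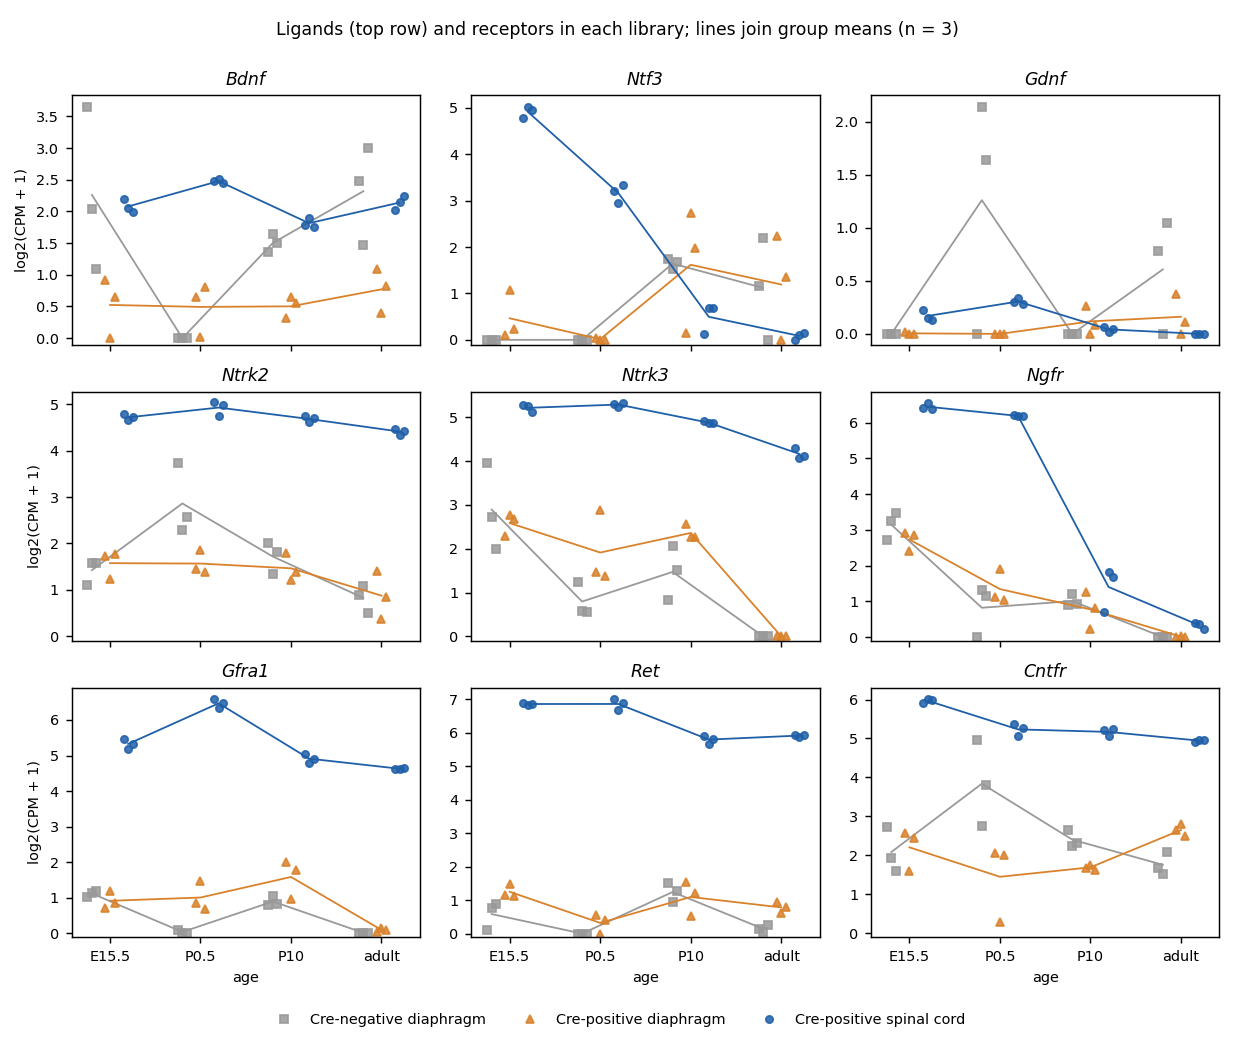
Level of the 9 genes as log2(CPM + 1) against age in every library, with grey squares for Cre-negative diaphragm, orange triangles for Cre-positive diaphragm and blue circles for spinal cord, and lines through the means of 3 libraries. In every spinal cord library the 5 receptors other than Ngfr lie above all diaphragm libraries of the same age, closest for Cntfr at P0.5 (32.2 CPM against 30.0 in Cre-negative replicate 1), whereas Ngfr and Ntf3 drop there to 0.33 and 0.12 CPM or less in the adult.

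In diaphragm the 3 ligands were at 11.6 CPM or less in every library, and in several groups libraries with no read stood beside libraries with over 1 CPM. Ntf3 had 0 reads in every Cre-negative library at E15.5 and P0.5, was 2.32, 1.88 and 2.19 CPM at P10, with adult values of 1.24, 3.56 and 0. In Cre-positive diaphragm it was 0.07, 1.09 and 0.18 at E15.5, 0.03, 0 and 0 at P0.5, 0.11, 5.63 and 2.92 at P10, then adult values of 3.70, 0 and 1.54. Every P10 library thus exceeded every P0.5 library of its genotype, while P10 and adult overlapped. The rise to P10 was 1.64 ± 0.56 in Cre-negative diaphragm (adjusted p = 0.029, and 0.29 without the intermediate libraries), and leaving out any 1 of the 6 compared libraries ended the call (0.052 to 0.072). In Cre-positive diaphragm the similar difference of 1.60 ± 0.56 was not past the threshold (0.057).

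Bdnf in Cre-negative diaphragm was 11.6, 3.13 and 1.13 CPM at E15.5, 0 at P0.5 in all 3 libraries, 1.57, 2.12 and 1.83 at P10, with adult values of 4.58, 1.78 and 7.0. The E15.5 mean of 5.27 was 2.13 CPM without replicate 1. It fell to P0.5 (-2.26 ± 0.47, adjusted p = 0.00055, and 0.0496 without the intermediate libraries) and rose to P10 (1.5 ± 0.47, adjusted p = 0.017). The rise lost its call without the intermediate libraries (0.27) and without P10 replicate 2 (0.0502). In Cre-positive diaphragm Bdnf was 0.90, 0 and 0.57 CPM at E15.5, 0.57, 0.01 and 0.76 at P0.5, 0.24, 0.56 and 0.46 at P10, then adult values of 1.14, 0.32 and 0.76. These ages overlapped and no step was past the threshold (limma adjusted p = 0.76 to 0.999).

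Gdnf had no reads in most diaphragm libraries. Its highest levels were 3.41 and 2.12 CPM in Cre-negative replicates 2 and 3 at P0.5, with 0 in replicate 1, and 0.72, 0 and 1.06 in the Cre-negative adult. In Cre-positive diaphragm it reached 0.30 CPM at most. It passed the filter only through those P0.5 libraries and adult replicate 3, and without the intermediate libraries it was not tested. Because the libraries where it is high let it into the fit, no test of Gdnf is given in the text. Counts below leave it out unless they are said to include it.

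**Figure D3:**
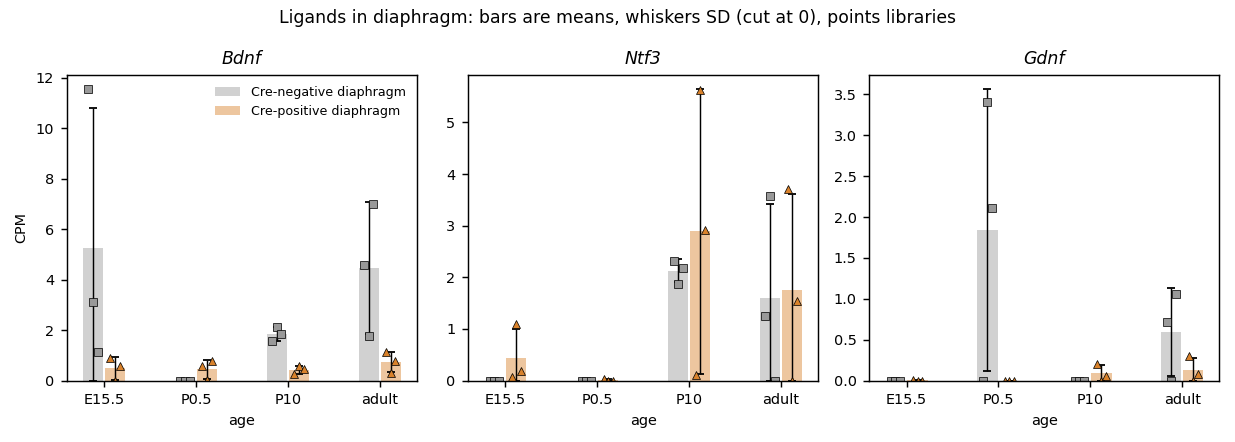
CPM of the 3 ligands in diaphragm by age, with bars for the mean of 3 libraries, whiskers for the SD (cut at 0) and points for libraries, grey for Cre-negative and orange for Cre-positive. Ntf3 is at or near 0 in the 6 libraries of P0.5 and averages 2.13 and 2.89 CPM at P10, and Bdnf is higher in Cre-negative libraries at E15.5, P10 and the adult age.

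The receptors were also detected in diaphragm, with medians over the 24 libraries from 0.60 CPM (Ret) to 3.47 (Cntfr) and highest libraries from 1.92 (Ret) to 30.0 (Cntfr). In Cre-negative diaphragm Cntfr was 5.65, 2.79 and 2.01 CPM at E15.5, 30.0, 5.75 and 12.9 at P0.5, and 5.21, 3.71 and 4.01 at P10, with P0.5 above both neighbours. It rose by 1.75 ± 0.49 (adjusted p = 0.0066, and 0.18 without the intermediate libraries) and then fell (-1.44 ± 0.49, adjusted p = 0.028, and 0.32). The fall was lost by edgeR (0.070) and without P0.5 replicate 1 or 3 or P10 replicate 2 or 3 (0.059 to 0.16). Ntrk2 ran alike, at 1.16, 1.98 and 1.99 CPM, then 12.2, 3.87 and 4.96, then 2.99, 1.54 and 2.5. It rose to P0.5 (1.44 ± 0.37, adjusted p = 0.0036, and 0.12 without the intermediate libraries) and fell to P10 (-1.15 ± 0.37, adjusted p = 0.021, and 0.26), a fall lost by edgeR (0.072) and without P0.5 replicate 1 or P10 replicate 2 (0.086 and 0.12). Ngfr fell from 5.59, 8.47 and 10.1 CPM at E15.5 to 0, 1.49 and 1.22 at P0.5 in Cre-negative libraries (-2.32 ± 0.35, adjusted p = 1.9e-05, 0.018 without the intermediate libraries and 0.080 by edgeR). In Cre-positive diaphragm it fell from 6.59, 4.34 and 6.19 to 1.16, 2.71 and 1.04 (-1.39 ± 0.35, adjusted p = 0.0064, 0.42 without the intermediate libraries and 0.56 by edgeR). In the adult 5 of the 6 diaphragm libraries had no Ngfr read and 1 had 3. Ntrk3 had no read in any adult diaphragm library, after 3.80 to 4.88 CPM in Cre-positive and 0.77 to 3.18 in Cre-negative libraries at P10. That step was -2.36 ± 0.44 in Cre-positive diaphragm (adjusted p = 0.00062, and 0.15 without the intermediate libraries). Gfra1 was 3.04, 0.95 and 2.44 CPM in Cre-positive diaphragm at P10 and 0.02, 0.11 and 0.08 in the adult (-1.49 ± 0.26, adjusted p = 0.00037, and 0.25 without the intermediate libraries). Ret never exceeded 1.92 CPM in diaphragm, and its highest library was Cre-positive at P10.

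Over the 6 diaphragm steps, 20 of 48 tests of the 8 other members were called, 6 rises and 14 falls, and 2 without the intermediate libraries, Ngfr and Bdnf between E15.5 and P0.5 in Cre-negative diaphragm. In Cre-negative diaphragm 6, 6 and 4 of 8 were called at the steps to P0.5, P10 and the adult, against 44.0%, 33.7% and 25.1% of the 13853 tested genes (15.3%, 6.9% and 2.54% without the intermediate libraries). In Cre-positive diaphragm 2, 0 and 2 were called, against 23.5%, 15.9% and 19.1% (4.0%, 1.17% and 1.68%). The median of all genes was -0.32, 0.15 and -0.21 at the Cre-negative steps and -0.41, 0.09 and -0.27 at the Cre-positive ones. Counted with Gdnf, the total of 22 fell to 14 without P10 Cre-negative replicate 2 and to 14 with quantile normalization, which gave 0 rises and 3 falls at the Cre-negative step to P10. With 3 reads as the floor, many of these genes lie at 0 in a group of the pair, and their fitted differences depend on the pseudocount.

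The comparison of Cre-positive with Cre-negative diaphragm asks which transcripts the tagged cells add to the background of the purification. Of 32 tests of the 8 members other than Gdnf 5 were called, 1 higher and 4 lower in Cre-positive diaphragm, and 0 without the intermediate libraries. At E15.5, P0.5, P10 and the adult age 1, 3, 0 and 1 of 8 members were called, against 11.0%, 27.7%, 1.45% and 12% of genes, and without the intermediate libraries limma called 0.0527%, 0.813%, 0.0% and 0.105% of genes (1036, 2335, 246 and 1042 genes at an unadjusted p under 0.05). Gfra1 was the one higher, with 0.81, 1.78 and 0.62 CPM against 0.07, 0.01 and 0 at P0.5 (0.97 ± 0.26, adjusted p = 0.0097, and 0.33 without the intermediate libraries). Cntfr was lower at P0.5, at 3.14, 0.22 and 2.99 CPM against 30.0, 5.75 and 12.9 (-2.39 ± 0.49, adjusted p = 0.0013, and 0.11). The Cre-negative mean of 16.2 was 9.34 CPM without replicate 1, and the groups did not overlap. Ntrk2 was lower at the same age, at 1.73, 2.62 and 1.62 against 12.2, 3.87 and 4.96 CPM (-1.30 ± 0.37, adjusted p = 0.013, 0.30 without the intermediate libraries, 0.096 by edgeR and 0.067 without Cre-negative replicate 1, whose removal lowers the Cre-negative mean from 7.02 to 4.41). Gdnf had no read in the P0.5 Cre-positive libraries, against 0, 3.41 and 2.12 CPM. Under RLE scaling, with Gdnf counted, the P0.5 split was 2 higher to 3 lower, and the adult one 1 higher to 0 lower.

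For Bdnf the E15.5 level was below that of Cre-negative diaphragm (-1.74 ± 0.47, adjusted p = 0.021, and 0.58 without the intermediate libraries) and so was the adult level (-1.55 ± 0.47, adjusted p = 0.034, and 0.71). edgeR on the recovered reads called neither (adjusted p = 0.19 and 0.31), and with RLE size factors the adult p was 0.056. The groups did not overlap at either age. The E15.5 call was lost without Cre-negative replicate 1 (-1.04, 0.092) or Cre-positive replicate 2 or 3 (0.092 and 0.058). The adult call was lost without Cre-negative replicate 1 or 3 or Cre-positive replicate 2 or 3 (0.090 to 0.14). At P0.5, where the Cre-negative libraries have no read, the difference was 0.49 (adjusted p = 0.46), and at P10 it was -1.0 (0.37). Connective tissue genes were lower in Cre-positive diaphragm at all 4 ages: an 8-gene list summed to 1646 to 1667 CPM in Cre-positive against 3189 to 3284 in Cre-negative libraries at E15.5, 1808 to 2677 against 3328 to 7262 at P0.5, 1693 to 1962 against 2256 to 3270 at P10, and 214 to 306 against 379 to 466 in the adult. A 6-gene satellite cell and myoblast list summed to 71.7 to 94.6 against 163 to 470 CPM at P0.5 and to 9.72 to 12.4 against 16.5 to 24.4 in the adult. At P0.5 the Schwann cell list (112 to 226 against 235 to 241 CPM) and the skeletal muscle list (57882 to 60416 against 75778 to 90018) were lower too. Their part in the lower Bdnf, Cntfr and Ntrk2 was not tested.

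Between tissues, 5 of the 6 receptors were higher in spinal cord than in Cre-positive diaphragm at every age. Of 32 tests of 8 members 29 were lower and 1 higher in diaphragm, with 8, 8, 8 and 6 called at the 4 ages, against 73.6%, 75.3%, 73.0% and 74.8% of the 14831 genes tested. Of all genes, 7733, 8442, 7881 and 8195 were called lower in diaphragm at the 4 ages, and 3189, 2722, 2952 and 2895 higher. The median of all genes was -0.58, -0.80, -0.63 and -0.72, and that of the members -3.74, -3.58, -2.87 and -2.92. Without the intermediate libraries 28 member tests were called, against 57.6%, 61.7%, 57.9% and 62.5% of genes. Ret differed on the log2(CPM + 1) scale by -5.61, -6.54, -4.70 and -5.13 from E15.5 to the adult (SE 0.20 each, adjusted p = 2.0e-15, 1.2e-16, 2.8e-14 and 6.0e-15). Gfra1 differed by -4.41, -5.46, -3.33 and -4.53 (SE 0.22), Ntrk2 by -3.15, -3.37, -3.22 and -3.54 (SE 0.22), Ntrk3 by -2.63, -3.38, -2.52 and -4.17 (SE 0.26), and Cntfr by -3.77, -3.79, -3.48 and -2.30 (SE 0.32). All of these were called with and without the intermediate libraries, in each leave-one-out fit, and with RLE size factors. Bdnf was also lower in Cre-positive diaphragm at each age, by -1.55, -1.99, -1.31 and -1.37, but not by edgeR on the recovered reads (adjusted p = 0.072 to 0.26). Cre-negative diaphragm was not in this fit. Its Bdnf means were above those of spinal cord at E15.5 (5.27 against 3.23 CPM) and in the adult (4.46 against 3.42). They were below at P0.5 (0 against 4.57) and P10 (1.84 against 2.52).

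For Ngfr and Ntf3 the tissues differed less, or in the other direction, after P0.5. Ngfr was lower in diaphragm by -3.71 at E15.5 and -4.84 at P0.5, but its groups overlapped at P10 (-0.63, adjusted p = 0.046, and 0.33 without the intermediate libraries). That call was also lost without P10 Cre-positive diaphragm or spinal cord replicate 2 or 3 (0.074 to 0.26), without 12 libraries of other ages that share the fit (0.050 to 0.053), and by edgeR (0.59). In the adult every spinal cord library (0.17 to 0.33 CPM) was above the diaphragm ones (0, 0.03 and 0), a difference of -0.32 that limma did not call (0.30) and edgeR did (0.0042). Ntf3 was lower in diaphragm by -4.45 at E15.5 and -3.15 at P0.5, and was 1.12 ± 0.50 higher at P10 (adjusted p = 0.04996) and 1.11 ± 0.50 higher in the adult (0.0515). The P10 call was lost without the intermediate libraries (0.28), without P10 Cre-positive diaphragm replicate 2 or 3 or any P10 spinal cord library (0.067 to 0.31), and without 15 libraries of other ages (0.052 to 0.058), and both groups overlapped at P10 and at the adult age. The difference between tissues changed from P0.5 to P10 by 4.27 ± 0.70 for Ntf3 (adjusted p = 5.9e-05, and 0.023 without the intermediate libraries) and by 4.21 ± 0.39 for Ngfr (4.5e-08, and 0.001). It changed by 2.13 ± 0.31 for Gfra1 (1.6e-05, and 0.023) and 1.84 ± 0.28 for Ret (2.8e-05, and 0.017). This interaction was called for 46.5% of genes, and for 20% without the intermediate libraries. The same interaction was called for 38.7% of genes (10.2%) from E15.5 to P0.5 and 34.3% (6.59%) from P10 to the adult, and that between genotypes for 9.9%, 10.3% and 4.21% (0.0151%, 0.0376% and 0.00753%) at the 3 steps.

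**Figure D4:**
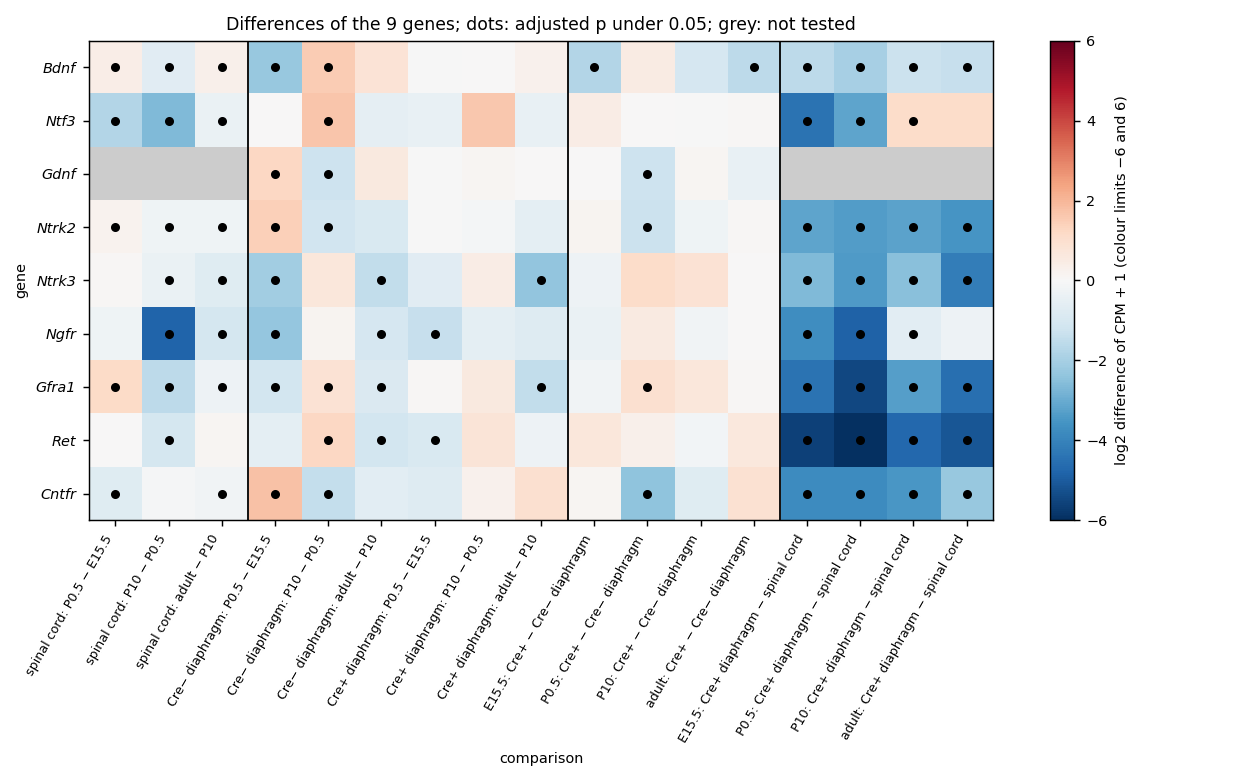
Log2 difference of CPM + 1 for the 9 genes (rows) in 17 comparisons (columns), blue where lower and red where higher in the group or age named ahead of the minus sign, with dots for limma adjusted p under 0.05 and grey where not tested. The 4 columns at the right, diaphragm against spinal cord, are mostly blue with 30 dots, and the 4 Cre columns beside them hold 6, 1 of them for Gdnf, which was tested only through the libraries where it is high.

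Ligands in diaphragm and receptors in spinal cord can be set side by side by age. NT-3 transcripts in diaphragm went from at most 0.03 CPM at P0.5 to means of 2.13 ± 0.23 (Cre-negative) and 2.89 ± 2.8 CPM (Cre-positive) at P10 (SD, n = 3), while its receptor Ntrk3 in spinal cord went from 38.2 ± 1.22 to 28.4 ± 0.54. Bdnf in Cre-negative diaphragm went from 5.27 ± 5.5 through 0 and 1.84 ± 0.28 to 4.46 ± 2.6 CPM over the 4 ages, while spinal cord Ntrk2 went from 25.4 ± 1.19 through 29.6 ± 3.2 and 24.7 ± 1.2 to 20.3 ± 0.99. In Cre-positive diaphragm the Bdnf means were 0.49, 0.45, 0.42 and 0.74 CPM, with no step past the threshold. Gdnf in diaphragm exceeded 1 CPM only in Cre-negative libraries, 2 at P0.5 and 1 in the adult, and spinal cord Gfra1 was highest at P0.5, at 87.7 ± 7.15 CPM. Spinal cord Ret averaged 115 CPM at both E15.5 and P0.5. With 4 ages and these few reads, no relation between ligand and receptor was tested.

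The wider trophic pathways were read from 5 lists of 69 other genes. In spinal cord 55 were tested: 21 rose and 26 fell to P0.5, 9 rose and 39 fell to P10, and 13 rose and 25 fell to the adult. That is 85.5%, 87.3% and 69.1% called, against 72.3%, 78.7% and 67.9% of all genes, and 38, 38 and 27 genes were called without the intermediate libraries. Their medians were -0.09, -0.61 and -0.17 beside -0.13, -0.08 and -0.16 for all genes. With RLE size factors the splits were 25 and 24, 9 and 36, and 18 and 22. To P10 the 16 neurotrophin receptors and adaptors gave 2 rises and 12 falls. They included Rtn4r, the Nogo receptor that pairs with p75, which went from 23.5 to 4.86 CPM (-2.07 ± 0.10, adjusted p = 4.7e-11), and its partner Lingo1, from 53.9 to 18.5 (-1.49 ± 0.06, adjusted p = 9.0e-12). Among 10 tested genes of the GDNF family list 0 rose and 8 fell to P10. The share called was near the 78.7% of all genes called in either direction at this step, 4706 higher and 5820 lower. The falls included the Ret adaptors Dok4, from 41.0 to 7.57 CPM (-2.30 ± 0.11), and Dok5, from 28.7 to 6.55 (-1.98 ± 0.10). The neurturin receptor Gfra2 fell later, from 16.6 CPM at P10 to 4.71 in the adult (-1.62 ± 0.08). Of 8 tested genes of the CNTF and LIF list 1 rose and 7 fell to P10: the kinase gene Jak2 fell from 8.21 to 2.12 CPM (-1.56 ± 0.08), and Cntf, the ligand of Cntfr, rose from 2.06 to 5.63 (1.07 ± 0.18, adjusted p = 9.2e-05). Cntf at P10 was highest in replicate 2, at 7.89 CPM against 3.89 and 5.11, like Ngfr. Vgf, a gene that neurotrophins induce, rose at P0.5 from 32.1 to 84.9 CPM (1.38 ± 0.09), and the growth factor gene Pgf rose at P10 from 20.6 to 65.7 (1.62 ± 0.07). All of these 9 calls remained without the intermediate libraries.

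In diaphragm 0 of the 55 pathway genes tested were called at P10 between genotypes, and 5, 15 and 6 at E15.5, P0.5 and the adult age, with 0 at any age without the intermediate libraries. The shares of 9.09%, 27.3% and 10.9% at those 3 ages stand against 11.0%, 27.7% and 12% of all genes. Between tissues 45, 53, 44 and 46 of 61 were called, or 73.8%, 86.9%, 72.1% and 75.4%, against 73.6%, 75.3%, 73.0% and 74.8% of all genes. Among them were Bex3, which encodes a protein that binds p75, at 1.54 CPM in adult Cre-positive diaphragm against 1126 in spinal cord (-9.04 ± 0.30, adjusted p = 4.4e-16), and Vgf at P0.5 (0.01 against 84.9 CPM, -6.41 ± 0.11). Ctf1, the ligand cardiotrophin 1, was higher in diaphragm at P10, at 3.78 against 0.20 CPM (1.97 ± 0.26, adjusted p = 1.2e-06). These 3 remained without the intermediate libraries.

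Across the means of the 12 groups, the genes whose log2 levels were most like those of Ret among 9997 compared were Ctnna2 and Ttbk1 (Pearson r = 0.995 and 0.995). For Gfra1 they were Dtx1 (0.992) and Fbxl16 (0.99), for Ngfr Crabp2 (0.982) and St8sia2 (0.976), and for Ntf3 Rnps1 (0.95) and Slc37a3 (0.895). Groups share tissue and depth, and how much of this likeness lies between tissues was not measured. It is a description and was not tested.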

How the data were processed

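Per the submitters' processing notes, reads were aligned to mm10 with Bowtie2 2.2.5 and counted with RSEM 1.2.12. The authors deposited 1 table of CPM (counts scaled to library size) for all 36 libraries; each library's values are whole multiples of 1 read within 0.1, so whole reads were recovered, the depth of P0.5 Cre-positive diaphragm replicate 3 being an estimate. Differences were fitted with limma 3.58.1 (trend, robust) in R 4.3.3 on log2(CPM + 1), over genes that reached 1 CPM in 3 or more of the libraries fitted together, with Benjamini-Hochberg adjustment over all genes tested and a threshold of 0.05. All diaphragm groups shared a fit, as did the spinal cord groups, and Cre-positive diaphragm with spinal cord. The tests edgeR 4.0.16 and DESeq2 1.42.0 on the recovered reads, other scalings, filters and pseudocounts, a replicate block and left-out libraries were the alternatives. Scripts were tested on simulated data. Some items are not reported here. The 9 genes, the pathway and the marker lists were chosen with earlier results of these data known. All 9 are named, with up to 3 called genes per pathway list and family of comparisons, those of largest difference with at least 1 CPM in the higher group; some are given. Promoter sequences matched by gene ID and end at the outermost start.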

Additional observations from a re-analysis of the deposited data

Results flagged for a closer look

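For 13 results the difference between groups itself changed between neighbouring ages by a limma interaction term with an adjusted p under 0.05. Such calls were common between tissues, at 38.7%, 46.5% and 34.3% of all genes at the steps to P0.5, P10 and the adult. Between genotypes the shares were 9.9%, 10.3% and 4.21%. All these shares were lower without the intermediate libraries. From E15.5 to P0.5 the Cre-positive minus Cre-negative difference in diaphragm changed by 1.17 for Gfra1 (adjusted p = 0.0495, and 0.73 without the intermediate libraries), by -2.51 for Cntfr (0.025, and 0.58) and by 2.23 for Bdnf (0.037, and 0.63), on the log2 scale. Over the same step the Cre-positive diaphragm minus spinal cord difference changed by -0.93 for Ret (adjusted p = 0.014, and 0.16), -1.05 for Gfra1 (0.012, and 0.25) and -1.13 for Ngfr (0.026, and 0.37). From P0.5 to P10 it changed by 1.84 for Ret (2.8e-05, and 0.017), 2.13 for Gfra1 (1.6e-05, and 0.023), 4.21 for Ngfr (4.5e-08, and 0.001) and 4.27 for Ntf3 (5.9e-05, and 0.023). These 4 were the ones called with and without the intermediate libraries. From P10 to the adult it changed by -1.20 for Gfra1 (adjusted p = 0.0058, and 0.24), 1.18 for Cntfr (0.049, and 0.31) and -1.65 for Ntrk3 (0.0016, and 0.094).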

How the results depend on the processing

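Leaving out the intermediate libraries moved the counts of called members most: from 19 to 11 in spinal cord between ages, from 22 to 2 in diaphragm between ages, and from 6 to 0 between genotypes, where fewer samples enter each fit. Diaphragm between ages gave 14 calls with quantile normalization and 11 when only the groups compared were fitted, and genotypes gave 10 with DESeq2 and 1 when only the groups compared were fitted. Leaving out 1 library at a time gave 17 to 19 calls in spinal cord, 14 to 24 in diaphragm between ages, 4 to 7 between genotypes and 28 to 31 between tissues; 14 came without P10 Cre-negative diaphragm replicate 2. With quantile normalization 3 called differences changed sign: Gfra1 in Cre-negative diaphragm from E15.5 to P0.5 (0.034) and from P0.5 to P10 (-0.17), and Ngfr between tissues at P10 (0.0091); the cause was not tested. With the replicate block 19, 22, 6 and 28 members were called; the numbers did not pair the libraries, since in 0 of 17 comparisons were all correlations of same-numbered deviations over 0.1. Tissue counts stayed at 27 to 31 under the settings tried. In the diaphragm fits no member reached 10 CPM in 3 libraries, so that filter gave no count there. The diaphragm age and genotype counts of this section include Gdnf. Without it the 22 and 6 calls of the main fits were 20 and 5. Gdnf was not tested without the intermediate libraries, so its calls were lost there through the filter. Spread between libraries limits the diaphragm values: Gdnf had 0, 271 and 163 reads in the Cre-negative libraries of P0.5.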
